A study of Mus musculus with 2 samples.

Results

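The miRNA genes of skeletal and cardiac muscle were followed in small RNA libraries of mouse neural tube, from which brain and spinal cord develop. The genes were chosen by name: Mir206, Mir133b, Mir133a-1, Mir133a-2, Mir1a-1, Mir1a-2, Mir208b and Mir499. Of these 8 genes, 7 had a row in the tables of 1973 miRNA genes, and Mir1a-2 was not analysed here as a gene of its own. Both libraries were made from tissue of B6NCrl embryos at day 13.5, healthy and of pooled sex, with no treatment or engineered allele named in the labels. They are numbered as biological replicates 1 and 2. There was 1 condition only, so the comparisons are between genes within a library and between the 2 libraries, and no test between conditions was possible. The intervals given cover counting error only and treat each read as independent. They may be too narrow even for that, because amplified reads without molecular identifiers may be copies of the same molecule.

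Muscle miRNAs fall into a few families. The miR-1 and miR-206 family and the miR-133 family are made together from shared transcripts, are switched on by muscle transcription factors, and act during the differentiation and growth of muscle. The miR-1 and miR-133a copies are used in heart and skeletal muscle, while miR-206 and miR-133b belong mainly to skeletal muscle and its precursors. A separate group, miR-208a, miR-208b and miR-499, lies in introns of myosin heavy chain genes and takes part in the choice of myosin type in heart and slow muscle.

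The mature sequences show these families in part. They are printed 5′ to 3′ from RefSeq (GRCm38.p6, the assembly also called mm10), with the seed, bases 2 to 8, in capitals, because the seed sets which transcripts a miRNA pairs with. Mature sequences were matched for 5 of the 8 genes, and miR-208a is added as the neighbour of miR-208b. No 3p arm of miR-1a and no miR-133a sequence was matched, so those families are compared by seeds within hairpins.
miR-206-3p: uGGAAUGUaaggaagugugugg
miR-133b-3p: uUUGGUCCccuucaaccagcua
miR-208b-3p: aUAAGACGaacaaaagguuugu
miR-208a-3p: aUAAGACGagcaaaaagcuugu
miR-499-5p: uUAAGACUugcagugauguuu
miR-206-5p: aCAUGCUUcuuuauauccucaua
miR-1a-1-5p: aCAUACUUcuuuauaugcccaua
The seed of miR-208b-3p is the same as that of miR-208a-3p, and the mature sequences differ at 3 of 22 bases. The seed of miR-499-5p shares its first 6 bases with theirs. These 3 miRNAs are the only ones of the 1738 mature sequences in the RefSeq table with those 6 bases. The arms miR-206-5p and miR-1a-1-5p differ at 3 of 23 bases, the first of them within the seed. On the hairpin strand, the miR-206-3p seed GGAAUGU was found in 13 of 2201 annotated miRNA hairpins (0.591%), among them Mir206, Mir1a-1 and Mir1a-2. The miR-133b-3p seed UUGGUCC was found in 9 (0.409%), among them Mir133b, Mir133a-1 and Mir133a-2.

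The hairpins of the 4 genes with most counts are shown because a count belongs to the whole hairpin and does not tell its arms apart. Capitals mark the annotated mature arms.
Mir206: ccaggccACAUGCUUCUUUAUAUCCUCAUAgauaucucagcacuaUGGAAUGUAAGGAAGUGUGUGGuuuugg
Mir133b: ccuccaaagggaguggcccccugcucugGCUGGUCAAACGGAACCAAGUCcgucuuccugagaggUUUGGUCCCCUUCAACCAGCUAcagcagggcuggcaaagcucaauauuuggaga
Mir208b: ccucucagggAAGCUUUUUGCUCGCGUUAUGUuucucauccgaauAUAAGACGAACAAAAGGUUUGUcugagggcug
Mir499: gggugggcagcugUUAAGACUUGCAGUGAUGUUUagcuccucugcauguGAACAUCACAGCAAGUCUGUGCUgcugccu
None of the mature arms in these hairpins was found whole in any other of the 2200 hairpins, on either strand.

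Among uniquely counted reads, the chosen muscle miRNA genes were a small part of both libraries, and Mir206 made up most of that part. Multimapping reads, which could hold miR-1a and miR-133a, are in neither figure. The 7 genes together held 2371 counts in replicate 2 and 1221 in replicate 1. These were 0.0413% (Wilson 95% interval 0.0397% to 0.0430%) of the 5738209 same-strand counts of replicate 2 and 0.0174% (0.0164% to 0.0184%) of the 7019469 of replicate 1, a mean of 0.0294% ± 0.0169 (SD, n = 2). Of all reads, unmapped and multimapping ones included, the mean share was 0.0155%. With each library's same-strand total set to the same size (counts per 1e6, CPM), the sum was 413 in replicate 2 and 174 in replicate 1, a 2.38-fold difference. Levels are not divided by gene length, since the reads are mature small RNAs and not fragments of a longer transcript. Counts of different miRNAs also depend on how well each is ligated, so ratios between genes are ratios of counts and not of molecules.

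Mir206, the skeletal muscle miRNA of the miR-1 family, had the most uniquely counted reads of the group in both libraries. It had 2139 counts in replicate 2 and 824 in replicate 1, or 373 CPM in replicate 2 and 117 CPM in replicate 1. The mean of 245 ± 181 CPM (SD, n = 2) put it at rank 139 of the 1973 genes. Only 726 of these had a count in either library, here and for the ranks below. For scale, Mir10a, the most abundant gene, stood 569-fold higher than Mir206 in replicate 2 and 1678-fold higher in replicate 1. Mir206 (ENSMUSG00000065559) lies on the plus strand of chromosome 1, bases 20679010 to 20679082 of GRCm38, within the long non-coding RNA gene Gm28653. It overlaps an exon of 1 of the 2 transcripts annotated there and is intronic to the other. The longest stretch its hairpin shares with a miRNA hairpin elsewhere is 13 bases, with Mir1a-1.

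Mir133b, the skeletal muscle member of the miR-133 family, was counted far less often than its neighbour. It lies in Gm28653 too, on the same strand and 3686 bases downstream of Mir206 (bases 20682769 to 20682887), and is exonic in both annotated transcripts. It had 29 counts in replicate 2 and 7 in replicate 1, which are 5.05 and 0.997 CPM. Mir206 thus exceeded Mir133b 73.8-fold in replicate 2 (exact 95% interval 51.2 to 110.4) and 118-fold in replicate 1 (56.9 to 294). The log2 ratio, with 0.5 added to each count, averaged 6.48 ± 0.42 (SD, n = 2). The difference between the libraries in this ratio was not detectable at this depth: the ratio in replicate 2 was 0.627 times that in replicate 1, with an exact interval of 0.231 to 1.47. The Mir133b hairpin shares 21 bases with Mir133a-1 and with Mir133a-2, within the mature arm of 22 bases. Multimapping reads, as inferred from the layout of the tables, were credited to no gene, and how many reads of Mir133b were lost in this way was not tested.

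The Mir1a and Mir133a copies, the miRNAs of heart and skeletal muscle, were at or near 0. Mir133a-1 on chromosome 18 and Mir133a-2 on chromosome 2 had 0 counts in both libraries. Mir1a-1, which lies 9254 bases from Mir133a-2 on the same strand of chromosome 2 and is overlapped by no other annotated gene, was at 0 counts in replicate 2 and at 3 in replicate 1. At 0 counts, the depth allows up to 0.523 CPM in replicate 2 and 0.427 CPM in replicate 1, taken as 3 counts. These limits hold for uniquely counted reads. The hairpins of Mir133a-1 and Mir133a-2 share 31 bases, longer than a mature miRNA, and those of Mir1a-1 and Mir1a-2 share 28. Multimapping reads made up 31.0% of all reads in replicate 2 and 28.5% in replicate 1, and their identity is not recorded in the tables. The counts therefore do not show that miR-1a or miR-133a was scarce. The arm miR-1a-1-5p printed above was found whole in no other hairpin, so that arm could be counted at its own gene.

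Among the myosin intron genes, Mir208b led in both libraries. Mir208b (ENSMUSG00000077928, chromosome 14, bases 54975700 to 54975776, minus strand) lies in an intron of Myh7, the beta or slow myosin heavy chain gene of heart and slow muscle. It had 130 counts in replicate 2 and 338 in replicate 1, or 22.7 and 48.2 CPM, a mean of 35.4 ± 18.0 CPM (SD, n = 2) at rank 245. Mir208b was thus the lower in replicate 2, unlike Mir206 and Mir133b. Mir499 (ENSMUSG00000076312, chromosome 2, bases 155622880 to 155622958, plus strand) lies in an intron of Myh7b, another myosin heavy chain gene. It had 73 counts in replicate 2 and 49 in replicate 1, or 12.7 and 6.98 CPM, a mean of 9.85 ± 4.06 CPM at rank 298. Read on either strand, the hairpins of these genes share at most 14 bases (Mir208b, with Mir208a) and 13 bases (Mir499) with a hairpin elsewhere. Read on the hairpin strand only, Mir208b and Mir208a share at most 10.

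**Figure D1:**
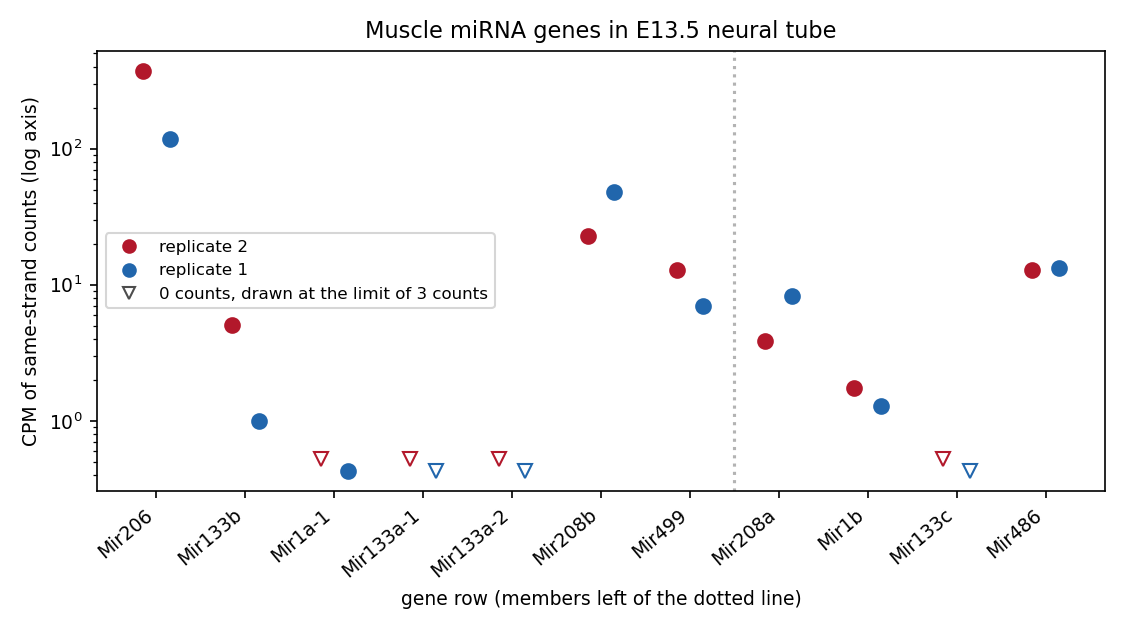
Level of each gene row in CPM of same-strand counts (log axis), with 1 point per library, replicate 2 on the left. Mir206 stands highest of these rows in both libraries, Mir133a-1 and Mir133a-2 have 0 counts in both (triangles at the limit of 3 counts), and Mir208b and Mir208a are lower in replicate 2 than in replicate 1.

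In replicate 2, the order of the members was Mir206, Mir208b, Mir499, Mir133b, and then the rows at 0. It was the same in replicate 1, with Mir1a-1 at 3 counts after Mir133b. Between neighbours among the first 4, the CPM of the 2 libraries did not overlap. Mir499 was 0.562 times Mir208b in replicate 2 (exact 95% interval 0.416 to 0.754) and 0.145 times in replicate 1 (0.105 to 0.196). The log2 ratio averaged -1.80 ± 1.38 (SD, n = 2), so its size depended on the library while its direction did not. In replicate 2 the ratio was 3.86 times that in replicate 1 (exact interval 2.51 to 5.999).

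Mir208a, which has the same 3p seed as Mir208b, lies in an intron of Myh6, the alpha myosin heavy chain gene of heart. It lies 26557 bases from Mir208b on the same strand. It is not among the 8 chosen genes and is given here for its position and seed. It had 22 counts in replicate 2 and 58 in replicate 1, or 3.83 and 8.26 CPM. Mir208b exceeded it 5.91-fold in replicate 2 (3.74 to 9.75) and 5.83-fold in replicate 1 (4.40 to 7.84). The ratio in replicate 2 was 1.01 times that in replicate 1, with an exact interval of 0.583 to 1.81. Both genes were thus lower in replicate 2 to a degree that could not be told apart at this depth. Mir206 was set against the same gene for contrast: it exceeded Mir208b 16.5-fold in replicate 2 (13.8 to 19.8) and 2.44-fold in replicate 1 (2.15 to 2.78), a ratio 6.74 times as large in replicate 2 (5.40 to 8.46). Its ratio to Mir499 was 29.3 in replicate 2 (23.2 to 37.5) and 16.8 in replicate 1 (12.6 to 22.9), 1.74 times as large in replicate 2 (1.18 to 2.56).

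**Figure D2:**
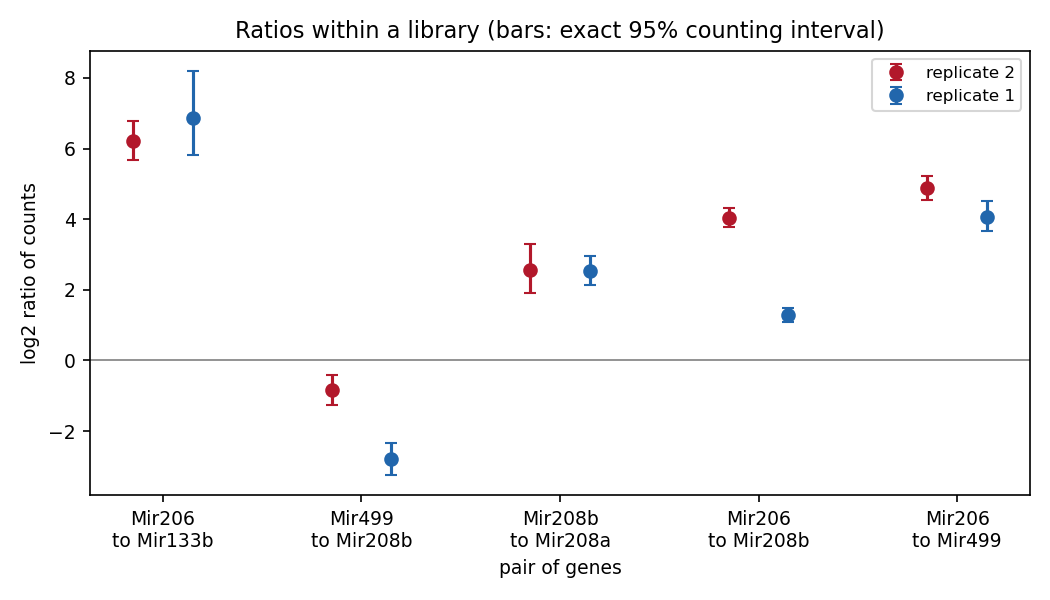
Log2 ratio of counts for 5 pairs of genes within each library, with exact 95% counting intervals, replicate 2 left of replicate 1. The Mir208b to Mir208a and Mir206 to Mir133b intervals of the libraries overlap, while those of Mir206 to Mir208b, Mir206 to Mir499 and Mir499 to Mir208b do not.

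These unequal shifts changed the make-up of the muscle counts. Mir206 held 90.2% of the counts of the 7 genes in replicate 2 (Wilson 95% interval 89.0% to 91.3%) and 67.5% in replicate 1 (64.8% to 70.1%). Mir208b held 5.48% in replicate 2 (4.64% to 6.47%) and 27.7% in replicate 1 (25.2% to 30.3%). Mir499 held 3.08% in replicate 2 (2.46% to 3.85%) and 4.01% in replicate 1 (3.05% to 5.27%), and Mir133b had 1.22% and 0.573%. Without Mir206 the other 6 genes summed to 232 counts, or 40.4 CPM, in replicate 2 and 397 counts, or 56.6 CPM, in replicate 1. The direction of the group's sum thus rested on Mir206: with it the sum was higher in replicate 2, and without it lower (log2 difference -0.48, exact interval -0.72 to -0.25).

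**Figure D3:**
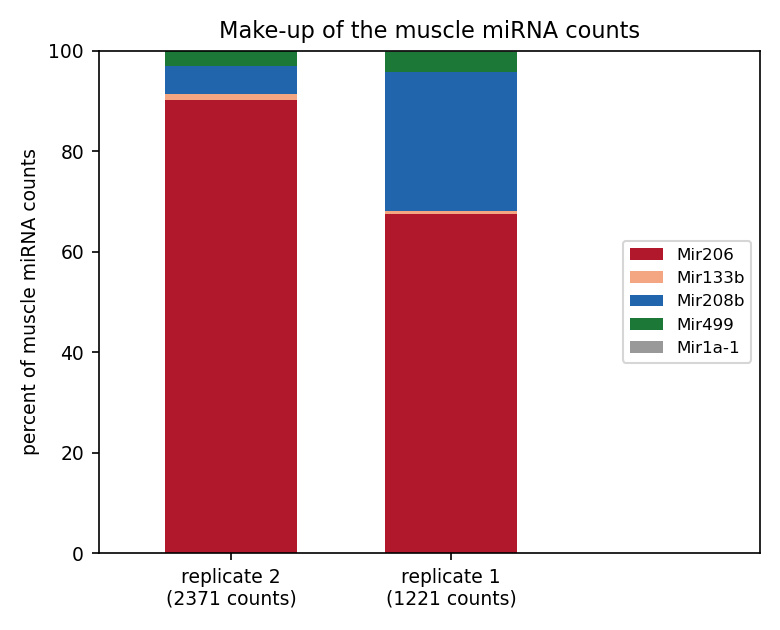
Percent of the counts of the 7 muscle miRNA genes held by each gene in replicate 2 (left bar, 2371 counts) and replicate 1 (right bar, 1221 counts). Mir206 holds 90.2% in replicate 2 and 67.5% in replicate 1, and Mir208b takes up most of the rest in replicate 1.

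The differences between the libraries were set against those of all genes. A difference is the log2 of CPM in replicate 2 over replicate 1, with 0.5 added to each count, over the 306 genes with at least 100 counts in both libraries together. Its median was 0.04 and the median of its size 0.19. Past 1 log2 unit, or 2-fold, in either direction were 9 of these genes (2.94%), 4 higher in replicate 2 (1.31%) and 5 lower (1.63%). Of the members, 3 had at least 100 counts. Mir206 was past 2-fold with a log2 difference of 1.67 (exact interval 1.55 to 1.78), the second highest of the 306. Mir208b was past it in the other direction at -1.08 (-1.39 to -0.79), the fourth lowest. Mir499 was short of 2-fold at 0.86 (0.32 to 1.42), the sixth highest. The median of the 3 was 0.86, against 0.04 over all 306 genes, but it hides opposite directions. Mir133b, with 36 counts in all, was under the minimum of 100 and stood 5.07-fold higher in replicate 2 (2.17 to 13.7), and Mir208a, with 80, had a log2 difference of -1.09 (-1.89 to -0.38). With 1 library on each side, no difference here has a replicate check.

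**Figure D4:**
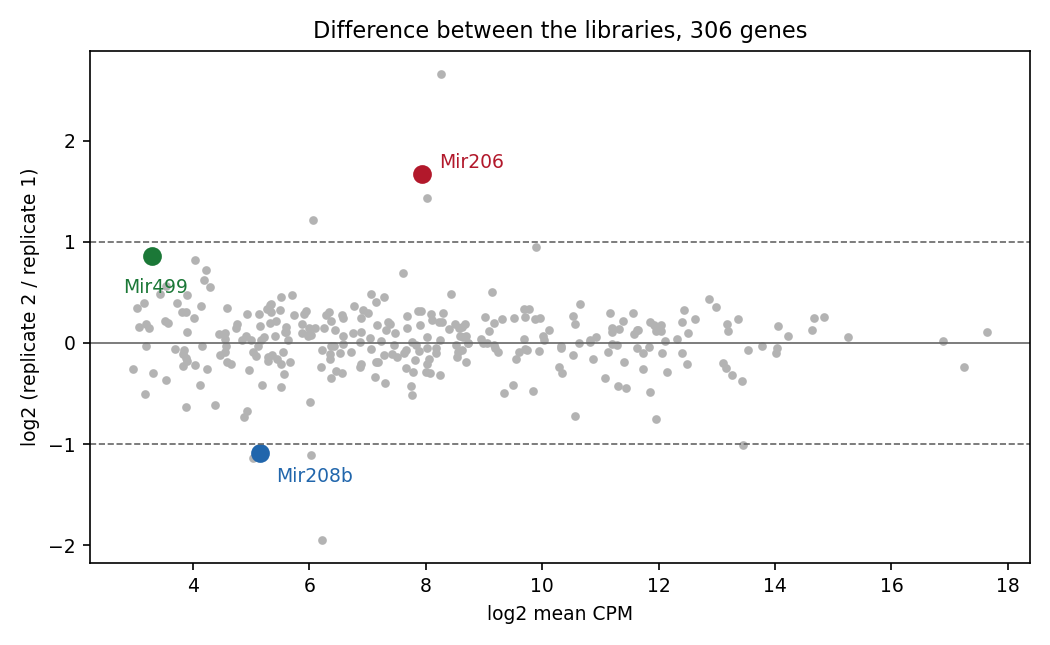
Log2 ratio of CPM in replicate 2 over replicate 1 against log2 mean CPM for the 306 genes with at least 100 counts summed (grey points), with the 3 muscle genes among them in colour. The dashed lines mark 2-fold: Mir206 lies above the upper one at 1.67, Mir208b below the lower one at -1.08, and Mir499 between them at 0.86.

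The genes whose difference was nearest to that of Mir206 were Mir1298, Mir205 and Mir214, among 305 other genes and over 2 libraries. Mir1298 had 2184 counts in replicate 2 and 990 in replicate 1 (log2 difference 1.43), Mir205 had 536 and 282 (1.22), and Mir214 had 7160 and 4549 (0.95). Even the nearest was 0.23 log2 units away. Nearest in mean level were Mir665 at 243 ± 37.1 CPM, Mir135a-1 at 239 ± 20.5 CPM and Mir760 at 236 ± 8.86 CPM (SD, n = 2), all with a smaller SD than Mir206 at 181 CPM.

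Other miRNAs known from muscle were listed as well. Of 6 listed, 4 had rows: Mir208a (above), Mir1b, Mir133c and Mir486. Mir378a and Mir486b had none. Reads on the strand of Mir378a were counted as opposite-strand reads of another row, at 1602 CPM in replicate 2 and 1070 CPM in replicate 1, above Mir206. Mir1b, on chromosome 18 and on the strand opposite to Mir1a-2, had 10 counts in replicate 2 and 9 in replicate 1. Its hairpin shares 28 bases with Mir1a-1, read on either strand. Mir133c had 0 counts in both. Mir486, in an intron of Ank1 and used in red cells as well as in muscle, had 73 counts in replicate 2 and 93 in replicate 1. These were 12.7 and 13.2 CPM, a log2 difference of -0.06 (exact interval -0.52 to 0.40). Mir3107, also called mir-486b, overlaps Mir486 on the other strand. Reads that match both would be multimapping, and how many were lost in this way was not tested. Mir486 was the only one of the 4 with at least 100 counts and was short of 2-fold, while Mir208a was past 2-fold below that minimum.

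Markers of other cell types were measured in the same libraries. The neuron list of 13 genes summed to 7638 CPM in replicate 2 and 7768 CPM in replicate 1. Of the 13, 11 had at least 10 counts in each library, and Mir124a-3 had only 1 count in all. Mir137 alone held 5168 CPM of this sum in replicate 2 and 5025 CPM in replicate 1. The Mir124a copies had at most 15 uniquely counted reads in replicate 2 and at most 31 in replicate 1. Reads that match several Mir124a copies would be multimapping and credited to no gene, so these counts do not show that miR-124 was scarce. The endothelial miRNA Mir126a was higher than the neuron sum, at 16019 CPM in replicate 2 and 17134 CPM in replicate 1, so the list shows neuronal miRNAs to be counted but not that they led the libraries. The motor neuron genes Mir218-1 and Mir218-2, of the cells that innervate skeletal muscle, summed to 197 CPM in replicate 2 and 228 CPM in replicate 1. Mir206 exceeded this sum in replicate 2 but not in replicate 1. Reads that match both Mir218 copies would be left out of the sum, while the Mir206 arms lie whole in no other hairpin. The order thus holds for uniquely counted reads only. The smooth muscle and mesenchyme list of 7 genes stood above the neuron sum too. It summed to 10609 CPM in replicate 2 and 8589 CPM in replicate 1. Of its 6 genes with at least 100 counts, 0 were past 2-fold. Like that of Mir126a, this order against the neuron sum holds for uniquely counted reads only. Reads that match several gene copies, such as those of Mir124a, are in none of these sums. With Mir206, the epithelial sum was higher in replicate 2, at 865 CPM against 607 CPM in replicate 1. Mir203 held 659 CPM of this sum in replicate 2 and 466 CPM in replicate 1, and Mir205 held 93.4 and 40.2 CPM. Mir429 had a log2 difference of 0.27 (exact interval 0.05 to 0.50). The intervals of Mir200a, Mir200b, Mir200c and Mir141 include 0, and Mir200b was the lower in replicate 2. With Mir208b, the hepatocyte miRNA Mir122 was lower in replicate 2, at 30.7 CPM against 118 CPM in replicate 1. The red cell miRNA Mir451a was lower in replicate 2 too, at 20.4 CPM against 45.2 CPM in replicate 1. The other red cell genes had log2 differences of -0.22 (Mir144) and -0.06 (Mir486), with exact intervals that include 0. The part of these cell types in the muscle differences was not tested. In such bulk libraries, fewer cells of a type and less miRNA per cell cannot be told apart, nor can differences between embryos, dissection and library preparation.

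**Figure D5:**
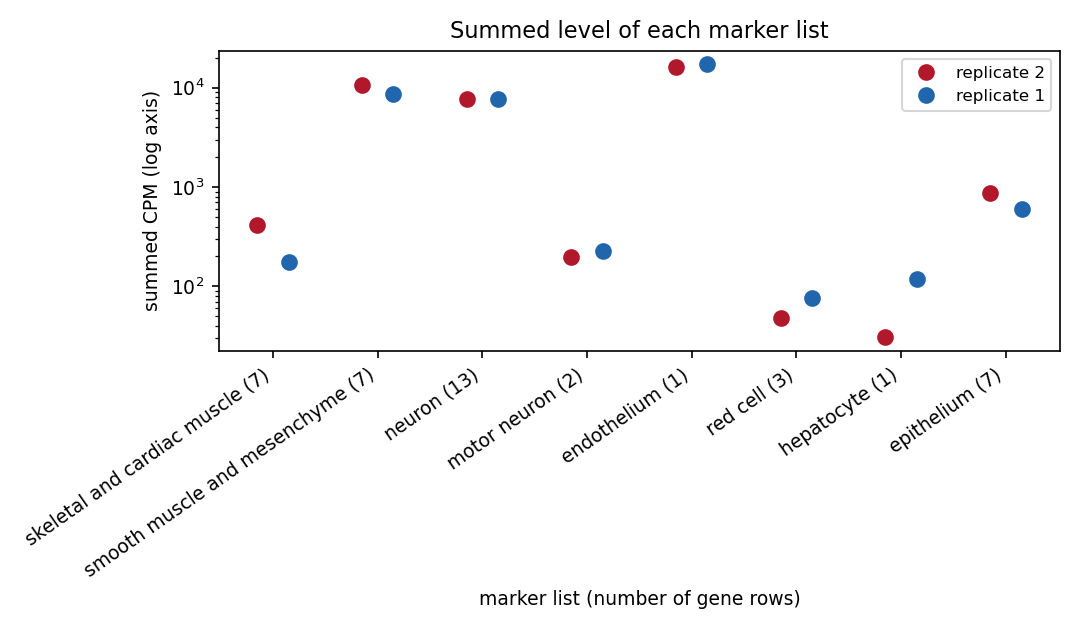
Summed CPM (log axis) of each marker list in replicate 2 (left point) and replicate 1 (right point), with the number of gene rows in brackets. The muscle sum (413 and 174 CPM) lies far below the neuron sum (7638 and 7768 CPM), and the hepatocyte marker Mir122 is lower in replicate 2 (30.7 and 118 CPM). Multimapping reads, which could hold miR-1a and miR-133a, are in none of the sums.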

How the data were processed

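The authors deposited whole-number counts for each miRNA gene, not normalized, made on mm10 with annotation M4 per the file headers. No aligner or counter is named (not given in the sources used here). At the top of each table stand unmapped, multimapping, no-feature and ambiguous reads, which were left out of all totals. The second count column was read as same-strand, since the opposite-strand column held 1.47% of the stranded counts in replicate 2 and 1.41% in replicate 1. CPM use each library's same-strand total. Names, positions and hairpins came from GENCODE M21 (1894 of 1973 identifiers matched without version) and mature sequences from RefSeq. The 8 genes, the marker lists and the comparisons were chosen with earlier results of these data known. All 8 members are named, with a fixed list of other muscle miRNAs and the 3 genes nearest to Mir206 in difference and in level. Ratios have exact conditional (Clopper-Pearson) 95% intervals, and shares Wilson 95% intervals. Only the log2 difference between libraries and its interval were tried on simulated data, with Poisson counts that hold counting error alone. Python 3.11.15 with scipy 1.17.1 was used, and edgeR 4.0.16 (TMM) and DESeq2 1.42.0 size factors under R 4.3.3 served as alternative scalings. Other pseudocounts, count minimums, totals, the unstranded column and each replicate left out were also tried.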

Additional observations from a re-analysis of the deposited data

Results flagged for a closer look

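Opposite-strand counts, which enter none of the levels above, exceeded the limit of 3 counts that a count of 0 allows at rows overlapped on the other strand by listed muscle miRNAs without a row of their own. Mir1b, on the strand opposite to Mir1a-2, had 0 opposite-strand counts in replicate 2 and 5 in replicate 1. Gm25301, on the strand opposite to Mir378a, a miRNA of muscle and fat metabolism, had 9193 in replicate 2 and 7514 in replicate 1, with 0 same-strand counts in both libraries. On the scale of the same-strand totals these were 1602 CPM in replicate 2 and 1070 CPM in replicate 1, above Mir206 at 373 and 117 CPM. Mir486, on the strand opposite to Mir3107 (also called mir-486b), had 2 in replicate 2 and 12 in replicate 1. Which gene these reads came from was not tested.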

How the results depend on the processing

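Over 7 results, 38 alternatives were run. The share and the counts of genes have no direction to change, and no alternative reversed the ratios or the Mir206 difference. Of the 30 alternatives that keep both replicates, 27 stayed within the replicate SD, the counting interval or 1.5 times a count, and 3 did not. The other 8 leave out a replicate and, with 2 libraries, show nothing of stability, since either value lies within the SD of their mean. The muscle share was 0.0155% with all reads as the total, within an SD that is itself wide. With 5 counts added, the log2 ratio of Mir206 to Mir133b was 6.04, since Mir133b has few counts. With a minimum of 1 count summed, 4 of 5 members and 223 of 726 genes were past 2-fold. This minimum lets in genes of a few counts, such as Mir1a-1 with 0 in replicate 2 and 3 in replicate 1. Leaving out each replicate gave muscle shares of 0.0174% to 0.0413%, log2 ratios of Mir206 to Mir133b of 6.18 to 6.78, of Mir499 to Mir208b of -2.77 to -0.83, and of Mir208b to Mir208a of 2.53 to 2.54, the last added after seeing the data. The Mir206 difference was 1.63 with TMM and 1.64 with DESeq2 size factors. No paired analysis was possible because the libraries form 1 group. Low counts limit Mir133b, Mir208a, Mir1b and Mir1a-1, and multimapping reads limit the Mir1a and Mir133a copies.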
